A study of Mus musculus with 18 samples.

Results

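The interferon receptor chains Ifnar1, Ifnar2, Ifngr1 and Ifngr2, the signal transducer Stat2 and the interferon regulatory factors Irf1, Irf2, Irf7 and Irf9 were followed in mouse cancer cells given sildenafil. They are 9 of the 55450 genes in the deposited count table, found by gene symbol. The libraries came from 3 cultured mouse lines labelled wild type: 4T1 from a mammary carcinoma, MC38 from a colon carcinoma and LLC, the Lewis lung carcinoma. Sildenafil citrate, which inhibits the cyclic GMP phosphodiesterase PDE5, was used at 100 µM in 3 libraries of each line, and 3 more libraries per line had the solvent DMSO as control. Exposure was 24 hours for 4T1, 24 hours for MC38 and 48 hours for LLC, so line and duration cannot be told apart wherever LLC is set beside the other lines. 4T1 was grown in RPMI and MC38 and LLC in DMEM, so line and medium cannot be told apart between 4T1 and the other lines. The title of the series names PDE5 and cholesterol trafficking by NPC1, and the comparisons ask how sildenafil acted on gene expression in each tumour line. The labels do not tell whether libraries within a group are separate cultures; the spread that p-values rest on is that between these libraries, and it may be technical.

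Type I interferons bind a receptor made of the chains IFNAR1 and IFNAR2, and interferon gamma binds one made of IFNGR1 and IFNGR2. JAK kinases on these chains phosphorylate STAT proteins. After type I interferon a STAT heterodimer that holds STAT2 joins IRF9 to form ISGF3, which binds the interferon-stimulated response element (ISRE), whereas interferon gamma acts through STAT homodimers on the gamma-activated site (GAS). IRF1 activates genes downstream of interferon gamma, IRF2 competes with IRF1 for DNA and often represses, and IRF7 drives transcription of type I interferon genes. Stat2, Irf1, Irf7 and Irf9 are themselves known interferon-induced genes, while the receptor chains are expressed in most cell types.

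The 4T1 libraries held 41070021 to 61600646 counts each, the MC38 libraries 29438187 to 36417399 and the LLC libraries 26348654 to 32129771. The predicted noncoding gene Gm26917 had a share of counts of 0.0157% to 0.0284% in 4T1, against 0.489% to 1.41% in MC38 libraries and 0.588% to 2.97% in LLC libraries. The labels give the same poly(A) preparation for all lines, but 6 small noncoding RNA genes took 45.7% to 54.8% of all TPM in MC38 and 37.2% to 46.3% in LLC, against at most 0.0235% in 4T1. Whether library preparation differed between 4T1 and the other lines was not tested, and it cannot be told apart from the line in any value that sets 4T1 beside MC38 or LLC. LLC control 3 stood apart from its group: a chi-square per gene of 53.0 and 44.6 separated it from LLC controls 1 and 2, against 2.87 to 15.5 for the other pairs of the same group. 4T1 expressed the epithelial marker Epcam (68.3 ± 1.54 CPM with sildenafil, 55.4 ± 1.31 CPM in controls, SD, n = 3 each) and the luminal factor Gata3, whereas Epcam was at 0 in every MC38 and LLC library. Epcam is 1 of 6 epithelial markers, which in controls summed to 2732 to 2830 CPM in 4T1, 2528 to 2590 CPM in MC38 and 203 to 228 CPM in LLC. With sildenafil they summed to 2183 to 2269, 2024 to 2172 and 182 to 189 CPM in the same order. Gata3 is 1 of 6 mammary markers, of which 4 were at 0 in all 4T1 sildenafil libraries and 3 in all 4T1 controls. Of 6 colon markers in MC38, Cdx1, Cdx2 and Lgr5 were at 0 in every library, Vil1 and Krt20 averaged at most 0.0319 CPM and Lgals4 had 0.932 ± 0.293 CPM with sildenafil and 0.937 ± 0.0763 CPM in controls. Of 5 lung markers in LLC, Nkx2-1, Sftpc, Sftpb and Scgb1a1 were at 0, while Napsa had 7.88 ± 1.08 CPM with sildenafil and 5.12 ± 0.420 CPM in controls and was called higher (edgeR adjusted p = 0.00644). CPM here is the count scaled to library size, with trimmed-mean (TMM) factors over the 18 libraries.

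All 9 genes are annotated as protein-coding. On GRCm38 (mm10) the receptor chains Ifnar2 (chr16:91372783-91405589), Ifnar1 (chr16:91485238-91507441) and Ifngr2 (chr16:91547072-91565623) lie in a row on the plus strand of chromosome 16, and Ifngr1 lies at chr10:19591949-19610229 on the plus strand. Stat2 lies at chr10:128270559-128292849, Irf1 at chr11:53770014-53778374, Irf2 at chr8:46739732-46847458 and Irf9 at chr14:55603571-55610030, all on the plus strand, and Irf7 at chr7:141262706-141266481 on the minus strand. Exons of Irf7 share 45 bases with Phrf1 on the opposite strand, and exons of Irf9 share 123 bases with Rnf31 on the same strand. Whether strand was used in counting is not known from the labels, so reads of these 2 genes and their neighbours may not be fully separated. In MC38 and LLC controls Phrf1 averaged 120 and 95.7 CPM, against 1.53 and 0.893 CPM for Irf7. Rnf31 averaged 25.0 and 19.3 CPM there, against 13.2 and 3.07 CPM for Irf9.

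The stretches upstream of 4 members are shown because they hold a match to the DNA elements that ISGF3 or STAT dimers are known to bind. RefSeq windows (build GRCm38.p6) from 250 bases before to 50 bases after each annotated start were searched on both strands for the ISRE core, GAAA and GAAA with 2 bases of any kind between them, and for the GAS, TTCNNNGAA. All 9 members had a window, 11 windows in all. Capitals mark the matches, and each 100-base stretch is on the plus strand. Irf1 (chr11:53769874-53769973, 140 to 41 bases before the start) and Ifnar2 (chr16:91372533-91372632) hold a GAS, Stat2 (chr10:128270248-128270347) holds an ISRE core that reads on the minus strand, and Irf2 (chr8:46739495-46739594) holds both, without overlap. The last 3 stretches run from 250 to 151 bases before the start.
Irf1: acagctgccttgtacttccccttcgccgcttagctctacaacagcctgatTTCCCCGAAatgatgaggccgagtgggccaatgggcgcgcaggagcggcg
Ifnar2: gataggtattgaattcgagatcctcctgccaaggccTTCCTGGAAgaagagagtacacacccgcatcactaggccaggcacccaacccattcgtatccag
Stat2: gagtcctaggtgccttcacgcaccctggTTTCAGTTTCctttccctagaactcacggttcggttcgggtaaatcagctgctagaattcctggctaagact
Irf2: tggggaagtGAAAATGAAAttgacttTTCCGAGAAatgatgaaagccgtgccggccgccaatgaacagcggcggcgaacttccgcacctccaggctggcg
The Ifnar1 window also holds a GAS, at the annotated start itself. The ISRE core was found in 2 of 9 members and in 3.443% of all 32851 windows, and the GAS in 4 of 9 members and in 8.298% of windows. Members were counted once whatever their number of windows, while the shares are per window, so these values are not like for like. A match is a description of letters and not a measured binding site, and the windows of Ifngr1, Ifngr2, Irf7 and Irf9 held neither string. Starts here are those of RefSeq and can differ from the gene positions given above. The first Irf9 window begins at chr14:55603735, after the gene start at chr14:55603571, so the bases before that gene start were not searched.

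In 4T1 cells given sildenafil for 24 hours, 8 of the 9 genes rose and none fell. Irf7, Stat2 and Irf9 moved most, 7.98-fold, 5.78-fold and 2.71-fold, followed by Irf1 at 1.67-fold, and 3 of the 4 receptor chains rose by 1.12-fold to 1.39-fold. The background was wide: 66.7% of the 13914 genes tested in 4T1 were called, 33.5% higher and 33.3% lower, so a rise by itself sets a member little apart. By size, 0.244% of tested genes had a larger log2 fold change than Irf7, 0.632% than Stat2 and 2.87% than Irf9. The median log2 fold change was 0.48 over the 9 genes and 0.0023 over all tested genes.

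Stat2, the STAT subunit particular to type I and type III interferon signalling, had 88.8, 90.8 and 83.2 CPM in 4T1 libraries with sildenafil, against 17.5, 14.0 and 13.3 CPM in 4T1 controls. The lowest treated library was more than any control by a wide margin, and the log2 fold change was 2.53 ± 0.0843 (SE, n = 3 each, edgeR adjusted p = 1.06e-08). Its promoter stretch is one of the 2 shown with an ISRE core, and the other is that of Irf2. The windows of Irf9 and Irf7 held neither string searched for. Whether a match bears on the response was not tested. Irf9, the DNA-binding subunit of ISGF3, had 95.4, 94.0 and 78.8 CPM with sildenafil, against 35.5, 30.9 and 31.3 CPM in controls. The groups did not overlap, and the log2 fold change was 1.44 ± 0.0802 (edgeR adjusted p = 4.42e-07).

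Irf7, the factor that amplifies type I interferon transcription, had 88.5, 88.0 and 63.0 CPM with sildenafil, against 11.2, 9.47 and 8.99 CPM in 4T1 controls. Sildenafil library 3 was the lowest treated library for Irf7, and also for Stat2 and Irf9, yet stayed above every control. The log2 fold change of Irf7 was 3.00 ± 0.191 (edgeR adjusted p = 0.000101). Phrf1, which overlaps Irf7 on the other strand, went the other way, averaging 62.6 CPM with sildenafil and 79.3 CPM in controls, a log2 fold change of -0.36 ± 0.0361 (edgeR adjusted p = 1.01e-06). Rnf31, which overlaps Irf9, rose by a smaller log2 fold change of 0.44 ± 0.0429 (edgeR adjusted p = 8.88e-07).

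Irf1, the activator of many interferon gamma targets, had 116, 116 and 118 CPM in 4T1 with sildenafil, against 68.1, 68.9 and 69.8 CPM in controls. Both groups were tight and far apart, with a log2 fold change of 0.74 ± 0.0317 (edgeR adjusted p = 2.68e-10). Its counterpart Irf2 had 38.9, 37.7 and 41.4 CPM with sildenafil, against 30.0, 29.6 and 29.5 CPM in controls, without overlap. Its log2 fold change was smaller, 0.38 ± 0.0445 (edgeR adjusted p = 4.17e-06).

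Among the receptor chains of 4T1, the signalling chain of the gamma receptor, Ifngr2, had 41.5, 40.3 and 41.4 CPM with sildenafil, against 27.0, 29.7 and 30.7 CPM in controls, a log2 fold change of 0.48 ± 0.049 (edgeR adjusted p = 1.29e-06). Ifnar1 had 81.4, 81.8 and 83.2 CPM with sildenafil, against 61.2, 62.5 and 60.7 CPM in controls, a log2 fold change of 0.40 ± 0.0331 (edgeR adjusted p = 1.64e-07). Each receptor therefore had a chain whose treated libraries stood clear of the controls. The high-affinity chain Ifnar2 rose less, to 53.6 ± 0.832 CPM with sildenafil against 47.4 ± 1.40 CPM in controls (SD, n = 3 each). Its log2 fold change was 0.16 ± 0.0347 (edgeR adjusted p = 0.00117). The ligand-binding chain Ifngr1 had 30.9 ± 0.865 CPM with sildenafil and 29.2 ± 0.343 CPM in controls, and did not pass the test (log2 fold change 0.07, 95% interval -0.01 to 0.15, edgeR adjusted p = 0.169). Scaled by library totals alone it was 0.13 and called (edgeR adjusted p = 0.0099). Groups did not overlap for any of the 9 genes, as for 71% of all tested genes.

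**Figure D1:**
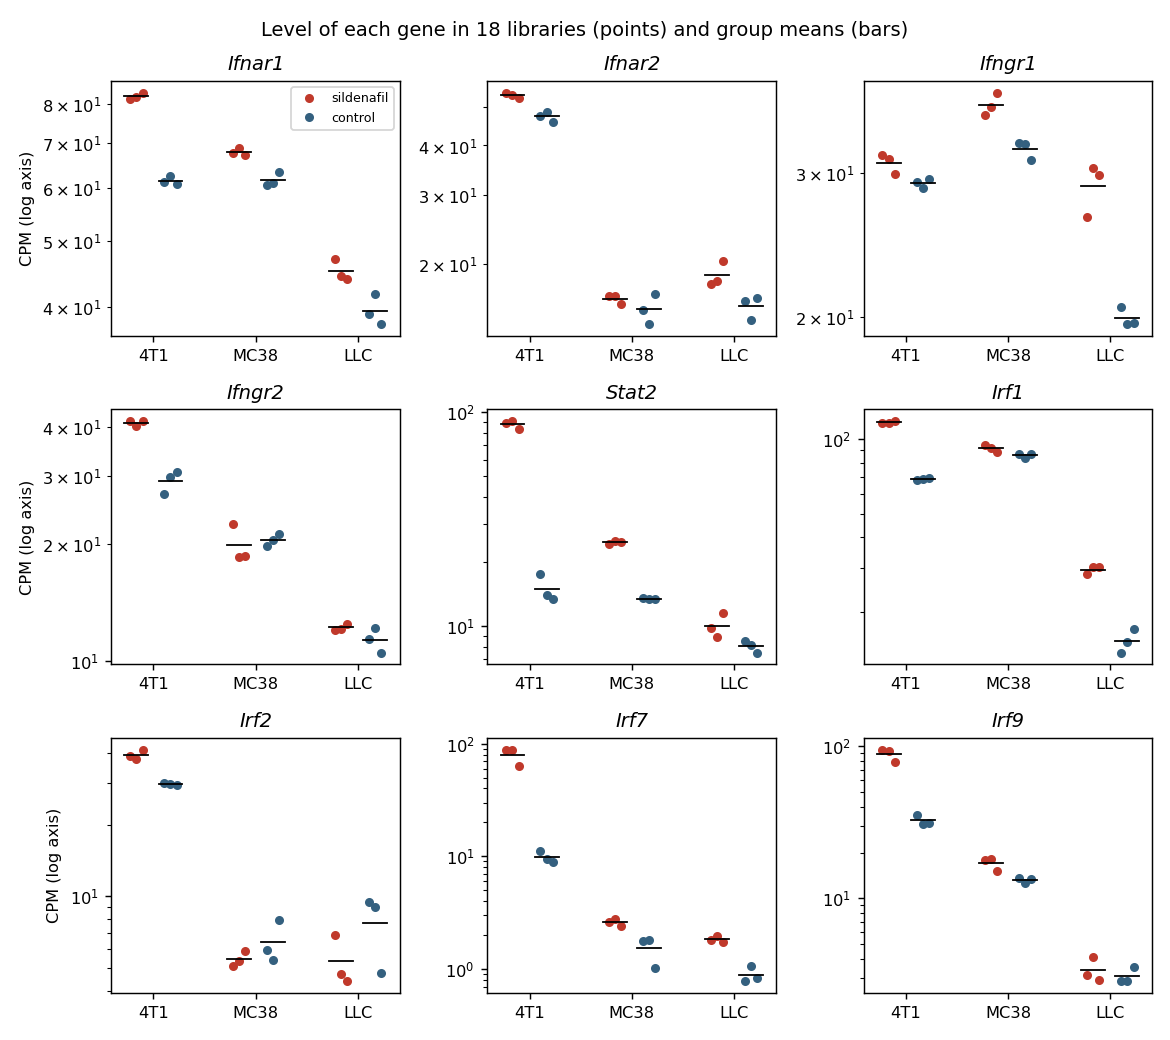
CPM (log axis, its range differing between panels) of each gene in each of the 18 libraries, with sildenafil in red left of control in blue for 4T1, MC38 and LLC; points are libraries and bars are means of 3. In 4T1 the sildenafil libraries of Stat2 (83.2 to 90.8 CPM) and Irf7 (63.0 to 88.5 CPM) sit far above the controls, whereas in LLC the widest gaps are those of Irf1 and Irf7.

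In a fit with Gm26917 as covariate, 2 of the 9 genes passed in 4T1, Stat2 (edgeR adjusted p = 0.0366) and Irf1 (log2 fold change 0.70, edgeR adjusted p = 0.0242), while Irf7 stood at 4.01 (edgeR adjusted p = 0.108) and Irf9 at 1.90 (edgeR adjusted p = 0.0566). Of the variance of Gm26917 in 4T1, a fraction of 0.967 lay between the treated and control groups, so this covariate and the treatment can hardly be told apart there. Leukocyte markers also moved: the summed level of 10 markers was 81.8 to 88.9 CPM with sildenafil and 34.7 to 35.8 CPM in controls, almost all of it Cd74, which is also on the list of interferon gamma targets, and Cd68, and both rose. Cd3e and Adgre1 were at 0 in all 6 libraries, and the pan-leukocyte marker Ptprc averaged 0.102 CPM with sildenafil and 0.0758 CPM in controls. The 6 fibroblast markers summed to 51.4 to 59.6 CPM with sildenafil and 26.5 to 29.1 CPM in controls, nearly all of it Pdgfra. The part of these marker genes in the results was not tested. In bulk RNA, fewer cells of a type and less RNA per cell cannot be told apart.

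In MC38 cells given sildenafil for 24 hours, 6 of the 9 genes rose and none fell, with Stat2, Irf7 and Irf9 again in front but at smaller size. Stat2 rose 1.83-fold, Irf7 1.69-fold and Irf9 1.29-fold, while Irf1 changed by 1.07-fold. Of 13363 tested genes 37.8% were called, 19.5% higher and 18.3% lower. The median log2 fold change was 0.13 over the 9 genes and 0.0040 over all tested genes. Treated and control libraries did not overlap for 6 of the 9 genes, as for 48.8% of all tested genes.

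Stat2 had 24.1, 25.0 and 24.7 CPM in MC38 with sildenafil, against 13.5, 13.3 and 13.4 CPM in controls. The spread within each group was small beside the gap, and the log2 fold change was 0.87 ± 0.0521 (edgeR adjusted p = 6.3e-09). Only 1.23% of tested genes had a larger log2 fold change in MC38. Irf9 had 18.0, 18.2 and 15.2 CPM with sildenafil, against 13.5, 12.6 and 13.4 CPM in controls, and its log2 fold change was 0.37 ± 0.0747 (edgeR adjusted p = 0.00105). Irf7 was scarce in this line, with 2.64, 2.79 and 2.40 CPM with sildenafil, against 1.78, 1.81 and 1.02 CPM in controls. These levels rest on 84, 78 and 84 counts with sildenafil and on 52, 54 and 30 counts in controls. The treated libraries all stood above the controls, at a log2 fold change of 0.76 ± 0.198 (edgeR adjusted p = 0.00696).

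Irf1, already abundant in MC38, had 94.2, 92.2 and 88.9 CPM with sildenafil, against 86.7, 83.8 and 87.3 CPM in controls. The groups did not overlap, but the log2 fold change of 0.09 ± 0.0343 passed narrowly (edgeR adjusted p = 0.0463). That call was lost in 10 of 17 alternatives, among them DESeq2 (adjusted p = 0.163), and without sildenafil library 1 or 2 or without any one of the controls (edgeR adjusted p from 0.0513 to 0.166). Irf2 had 5.09, 5.36 and 5.88 CPM with sildenafil, against 5.98, 5.39 and 7.99 CPM in controls, with overlap and no call (log2 fold change -0.25, 95% interval -0.51 to 0.02, edgeR adjusted p = 0.177).

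The receptor chains of MC38 moved little. Ifngr1 had 35.4, 36.1 and 37.6 CPM with sildenafil, against 32.6, 32.6 and 31.1 CPM in controls, a log2 fold change of 0.18 ± 0.0457 (edgeR adjusted p = 0.0063). Ifnar1 rose to 67.9 ± 0.807 CPM with sildenafil, against 61.7 ± 1.49 CPM in controls (SD, n = 3 each), a log2 fold change of 0.13 ± 0.0356 (edgeR adjusted p = 0.00771). Neither partner chain passed, and both overlapped between groups. Ifnar2 had 16.3 ± 0.454 CPM with sildenafil and 15.4 ± 1.35 CPM in controls (log2 fold change 0.08, 95% interval -0.05 to 0.22, edgeR adjusted p = 0.358). Ifngr2 had 19.9 ± 2.33 CPM with sildenafil and 20.5 ± 0.735 CPM in controls (log2 fold change -0.05, 95% interval -0.19 to 0.10, edgeR adjusted p = 0.671).

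In a fit with Gm26917 as covariate, Stat2 alone of the 9 passed in MC38 (log2 fold change 0.89, edgeR adjusted p = 0.00193), and Irf7 stood at -0.19 (edgeR adjusted p = 0.874). Gm26917 itself had 5682 ± 576 CPM with sildenafil and 11718 ± 2786 CPM in controls, and a fraction of 0.850 of its variance lay between the groups, so here too it can hardly be told apart from the treatment. The leukocyte markers summed to 9.96 to 10.6 CPM with sildenafil and 5.98 to 6.49 CPM in controls, with Csf1r and Cd68 called higher, Cd3e and Adgre1 at 0 and Ptprc at most 0.0342 CPM in a library. The fibroblast markers summed to 598 to 606 CPM with sildenafil and 608 to 628 CPM in controls. The part of these lists in the results was not tested.

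In LLC cells given sildenafil for 48 hours, 5 of the 9 genes rose and none fell, with Irf7, Irf1 and Ifngr1 in front. Irf7 rose 2.02-fold, Irf1 1.92-fold and Ifngr1 1.43-fold, whereas Stat2 and Irf9 did not pass the test. Of 13561 tested genes 27.3% were called, 15.1% higher and 12.2% lower. The median log2 fold change was 0.24 over the 9 genes and -0.0062 over all tested genes. Groups did not overlap for 6 of the 9 genes, as for 43.6% of all tested genes.

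Irf1 had 28.4, 30.3 and 30.3 CPM in LLC with sildenafil, against 13.7, 15.1 and 17.1 CPM in controls. Every treated library was well above every control, at a log2 fold change of 0.94 ± 0.0787 (edgeR adjusted p = 4.99e-05), and 1.03% of tested genes had a larger one. Its promoter stretch is shown above with a GAS, and so are those of Ifnar2 and of Irf2, which was not called in LLC. The part of the match in the response was not tested. Irf7 had 1.80, 1.95 and 1.73 CPM with sildenafil, against 0.778, 1.06 and 0.835 CPM in controls, from 53, 57 and 56 counts with sildenafil and 23, 29 and 26 counts in controls. The groups did not overlap, and the log2 fold change was 1.02 ± 0.193 (edgeR adjusted p = 0.00452).

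The ligand-binding chain Ifngr1 had 26.5, 30.4 and 29.8 CPM in LLC with sildenafil, against 20.6, 19.6 and 19.7 CPM in controls. It was the receptor chain with the widest gap in LLC, at a log2 fold change of 0.52 ± 0.066 (edgeR adjusted p = 0.000549). Its partner Ifngr2 overlapped between groups, with 12.2 ± 0.233 CPM with sildenafil and 11.3 ± 0.822 CPM in controls (log2 fold change 0.09, 95% interval -0.07 to 0.25, edgeR adjusted p = 0.426). Ifnar2 had 17.8, 18.2 and 20.3 CPM with sildenafil, against 16.1, 14.4 and 16.4 CPM in controls, and Ifnar1 had 47.1, 44.5 and 44.0 CPM with sildenafil, against 39.0, 41.7 and 37.6 CPM in controls. Their log2 fold changes of 0.24 ± 0.0766 and 0.18 ± 0.0578 passed narrowly (edgeR adjusted p = 0.0415 for Ifnar2 and 0.0458 for Ifnar1).

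The ISGF3 subunits were low in LLC. Stat2 had 9.74, 8.84 and 11.5 CPM with sildenafil, against 8.46, 8.19 and 7.48 CPM in controls. The groups did not overlap, but the test was missed (log2 fold change 0.30 ± 0.109, 95% interval 0.09 to 0.51, edgeR adjusted p = 0.0649), and Stat2 passed with all 18 libraries in the fit (log2 fold change 0.32, edgeR adjusted p = 0.0216). Irf9 had 3.12, 4.08 and 2.91 CPM with sildenafil, against 2.84, 2.86 and 3.52 CPM in controls, with overlap (log2 fold change 0.11, 95% interval -0.21 to 0.44, edgeR adjusted p = 0.644).

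Irf2 in LLC had 6.89, 4.70 and 4.39 CPM with sildenafil, against 9.47, 9.03 and 4.79 CPM in controls. Control 3, the library that stood apart, had the level of the treated libraries, and the log2 fold change of -0.56 ± 0.317 was not called (edgeR adjusted p = 0.236). Without that library it was -0.82 and called (edgeR adjusted p = 0.00388). In a fit with Gm26917 as covariate it was 0.16 and not called (edgeR adjusted p = 0.536). Across the 12 MC38 and LLC libraries the 3 with most Irf2, LLC controls 1 and 2 and MC38 control 3, also had the largest shares of Gm26917, at 2.97%, 2.15% and 1.41% of counts.

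**Figure D2:**
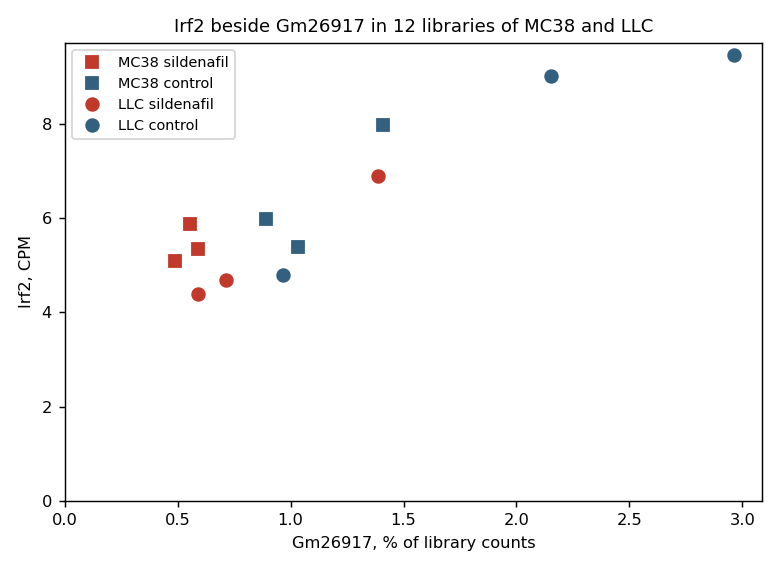
Irf2 in CPM against the share of library counts taken by Gm26917 in percent, for the 12 libraries of MC38 (squares) and LLC (circles), with sildenafil in red and control in blue. Irf2 is highest, at 9.47 CPM, in the library with the largest Gm26917 share, 2.97%, and LLC control 3, at 0.967%, lies among the treated libraries at 4.79 CPM.

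Without LLC control 3 the 5 calls in LLC stood and Irf2 was the 1 gene called lower. Leaving out any sildenafil library or control 1 left 3 called higher: Ifnar1 (edgeR adjusted p from 0.0843 to 0.138) and Ifnar2 (0.0519 to 0.172) lost their calls. Leaving out control 2 cost Ifnar2 its call (0.131), and with DESeq2 both lost theirs (adjusted p = 0.0848 for Ifnar1 and 0.0752 for Ifnar2). With Gm26917 as covariate 4 members were called higher in LLC, and Ifnar2 lost its call (log2 fold change 0.17, edgeR adjusted p = 0.277). A fraction of 0.464 of the variance of Gm26917 lay between the LLC groups. The leukocyte markers summed to 4.68 to 5.62 CPM with sildenafil and 2.61 to 3.18 CPM in LLC controls, led by Lyz2, with Cd3e at 0 and Ptprc at most 0.0339 CPM in a library. The fibroblast markers summed to 144 to 156 CPM with sildenafil and 67.6 to 76.6 CPM in controls, with Pdgfra and Pdgfrb called higher. The part of both lists was not tested.

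**Figure D3:**
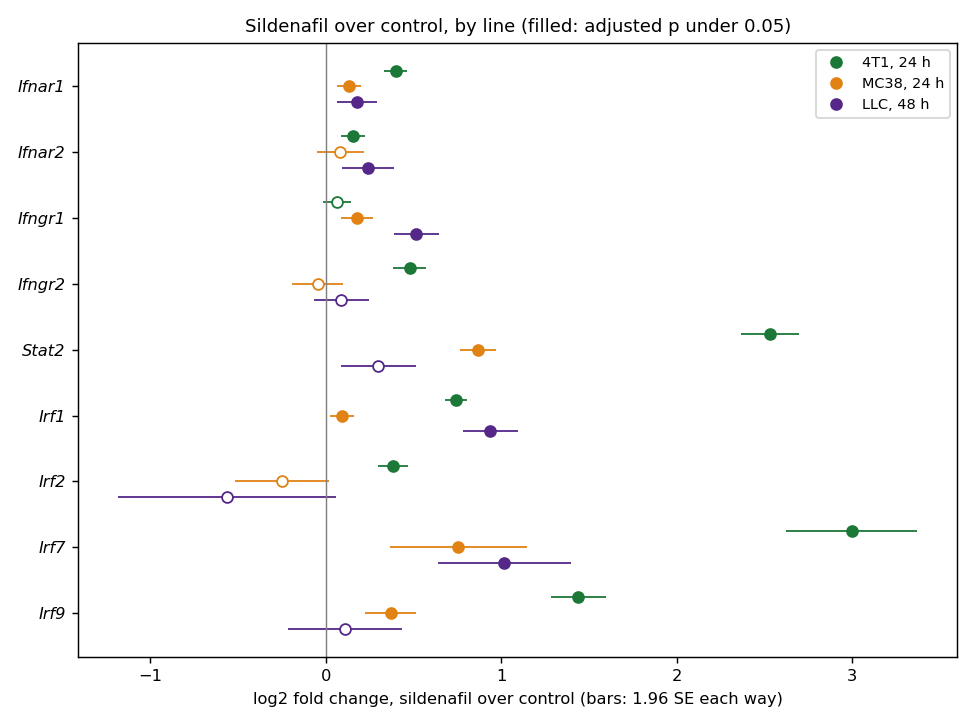
Log2 fold change, sildenafil over control, of each gene in 4T1, MC38 and LLC; bars are 95% intervals (from the SE) and filled points passed an edgeR adjusted p of 0.05. Stat2 reaches 2.53 in 4T1, 0.87 in MC38 and 0.30 in LLC, whereas Irf1 is at 0.74, 0.09 and 0.94.

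Whether the lines responded differently was tested as the difference of their log2 fold changes on all 18 libraries. Between 4T1 and MC38, both treated for 24 hours, 6 of the 9 genes had the larger response in 4T1 and none in MC38. Of the 16040 genes tested 34.6% were called, 16.7% with the higher signed log2 fold change in 4T1 and 17.9% in MC38. A gene that fell more in 4T1 thus counts among those higher in MC38. Among the 6 members the largest differences were those of Irf7, 2.26 ± 0.310 (edgeR adjusted p = 3.08e-05), and Stat2, 1.68 ± 0.118 (edgeR adjusted p = 8.31e-10). Irf9 followed at 1.08 ± 0.131 (edgeR adjusted p = 2.54e-06) and Irf1 at 0.67 ± 0.0662 (edgeR adjusted p = 4.87e-08). Of the receptor chains, Ifngr2 differed by 0.54 ± 0.0941 (edgeR adjusted p = 8.36e-05) and Ifnar1 by 0.28 ± 0.0558 (edgeR adjusted p = 0.000352). The responses of Ifnar2 (difference 0.09, 95% interval -0.08 to 0.26), Ifngr1 (-0.10, -0.23 to 0.04) and Irf2 (0.65, 0.09 to 1.20, edgeR adjusted p = 0.104) were not called different, though Irf2 was called with the 12 libraries of these lines alone (0.64, edgeR adjusted p = 0.000691). In a fit with Gm26917 as covariate the Irf2 difference turned to -0.41 (edgeR adjusted p = 0.0634), and Ifnar1 lost its call (0.17, edgeR adjusted p = 0.0796).

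Between 4T1 and LLC, 42% of tested genes differed in response, 20.2% with the higher signed log2 fold change in 4T1 and 21.8% with the higher one in LLC. Stat2 (2.23 ± 0.131, edgeR adjusted p = 3.23e-11), Irf7 (1.98 ± 0.380, edgeR adjusted p = 0.000511), Irf9 (1.33 ± 0.187, edgeR adjusted p = 9.78e-06), Irf2, Ifngr2 and Ifnar1 were among the 6 members with the larger value in 4T1. Ifngr1 went the other way, with a difference of -0.45 ± 0.0715 (edgeR adjusted p = 1.8e-05), so the gamma receptor's ligand-binding chain rose more in LLC and its signalling chain Ifngr2 more in 4T1 (0.39 ± 0.101, edgeR adjusted p = 0.00326). The response of Irf1 was also called smaller in 4T1, by a narrow margin (-0.20 ± 0.0734, edgeR adjusted p = 0.035). That call was lost in 11 alternatives, which included leaving out 4T1 sildenafil 1, 4T1 control 2 or 3, LLC sildenafil 2 or 3 or LLC control 1 or 2 (edgeR adjusted p from 0.055 to 0.146), and the value was 0.0045 in a fit with Gm26917 as covariate. In that fit 3 of the 6 members with the larger value in 4T1 lost their calls: Ifngr2 (0.34, edgeR adjusted p = 0.0905), Ifnar1 (0.10, edgeR adjusted p = 0.348) and Irf2, which turned to -0.18 (edgeR adjusted p = 0.489).

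Between MC38 and LLC, 22.3% of tested genes differed in response and 3 of the 9 members did. Stat2 rose more in MC38 (0.55 ± 0.137, edgeR adjusted p = 0.00583), and 9.68% of tested genes were called with the higher signed log2 fold change in MC38. Irf1 (-0.86 ± 0.0742, edgeR adjusted p = 1.5e-08) and Ifngr1 (-0.36 ± 0.0729, edgeR adjusted p = 0.00102) rose more in LLC, and 12.6% of tested genes were called with the higher signed log2 fold change in LLC. The responses of Irf7 (difference -0.28, 95% interval -1.11 to 0.55) and Irf9 (0.25, -0.13 to 0.63) were not called different, and the intervals leave wide room.

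In control cells the 9 genes were compared between lines on the 9 control libraries. Nearly every gene differs between lines: 84.5% of 15385 tested genes were called between 4T1 and MC38, 86.7% between 4T1 and LLC and 77.2% between MC38 and LLC, so these calls set the members little apart from other genes. Of the 9, 5 were higher and 2 lower in 4T1 than in MC38 (40.2% and 44.3% of all tested genes), and 7 were higher and none lower in MC38 than in LLC (38.7% and 38.5%). Groups did not overlap for 7 members between 4T1 and MC38, for all 9 between 4T1 and LLC and for 6 between MC38 and LLC, as for 87.4%, 87.5% and 77.7% of all tested genes. All 9 were higher in 4T1 than in LLC, from Ifngr1 at a log2 fold change of 0.46 ± 0.0483 to Irf9 at 3.32 ± 0.0912 and Irf7 at 3.39 ± 0.191, with 42.9% of all tested genes called that way and 43.7% the other way. Irf7 averaged 9.88 ± 1.15 CPM in 4T1 controls, 1.53 ± 0.446 in MC38 controls and 0.893 ± 0.152 in LLC controls (SD, n = 3 each). MC38 and LLC controls overlapped for Irf7, and its log2 fold change of MC38 over LLC was 0.77 ± 0.242 (edgeR adjusted p = 0.0101), a call missed with limma-voom (0.73, adjusted p = 0.0501). Irf9 had the same order of lines without overlap, at 32.6 ± 2.54 CPM in 4T1, 13.2 ± 0.516 CPM in MC38 and 3.07 ± 0.383 CPM in LLC. Gm26917, whose share set 4T1 apart from both other lines, cannot be told apart from the line here: in a fit with it as covariate, Irf7 of 4T1 over LLC was 2.04 and not called (edgeR adjusted p = 0.352).

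On the CPM scale Irf1 had its highest control level in MC38, whereas on TPM it was higher in 4T1. It averaged 68.9 ± 0.880 CPM in 4T1, 85.9 ± 1.89 CPM in MC38 and 15.3 ± 1.70 CPM in LLC, with a log2 fold change of -0.38 ± 0.0549 for 4T1 over MC38 (edgeR adjusted p = 1.82e-05) and 2.47 ± 0.0626 for MC38 over LLC (edgeR adjusted p = 2.96e-13). The 1.92-fold rise of Irf1 in LLC thus ended at 29.7 ± 1.09 CPM, below the control level of either other line. Ifngr1 was also lower in 4T1 than in MC38, by a log2 fold change of -0.20 ± 0.0467 (edgeR adjusted p = 0.00106), a call lost with scaling by library totals alone (-0.03, edgeR adjusted p = 0.556) and without a filter on low counts (-0.12, edgeR adjusted p = 0.0766).

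Ifnar2 and Irf2 set 4T1 apart from both other lines. Ifnar2 averaged 47.4 ± 1.40 CPM in 4T1, 15.4 ± 1.35 CPM in MC38 and 15.6 ± 1.07 CPM in LLC, and MC38 and LLC were not called different (log2 fold change -0.04, 95% interval -0.18 to 0.10). Irf2 stood at 29.7 ± 0.284, 6.45 ± 1.36 and 7.76 ± 2.59 CPM in the same order, with log2 fold changes of 2.14 ± 0.232 for 4T1 over MC38 and 1.86 ± 0.227 for 4T1 over LLC (edgeR adjusted p = 4.97e-05 and 9.67e-05). MC38 over LLC was -0.28 and not called (edgeR adjusted p = 0.367), and -0.54 and called without LLC control 3 (edgeR adjusted p = 0.000703).

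Stat2 was not called different between 4T1 and MC38 controls, at 14.9 ± 2.25 CPM in 4T1 and 13.4 ± 0.101 CPM in MC38 (log2 fold change 0.09, 95% interval -0.10 to 0.28, edgeR adjusted p = 0.389), and stood at 8.04 ± 0.504 CPM in LLC. Scaled by library totals alone, 4T1 over MC38 was 0.26 and called (edgeR adjusted p = 0.0211). Ifnar1 was not called between 4T1 and MC38 either (log2 fold change -0.07, edgeR adjusted p = 0.149), and its sign turned with library totals alone (0.10) and without a filter (0.01). Both receptor chains Ifnar1 and Ifngr2 were lowest in LLC, at 39.5 ± 2.09 and 11.3 ± 0.822 CPM, and Ifngr2 was higher in 4T1 than in MC38 by a log2 fold change of 0.44 ± 0.066 (edgeR adjusted p = 2.82e-05).

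**Figure D4:**
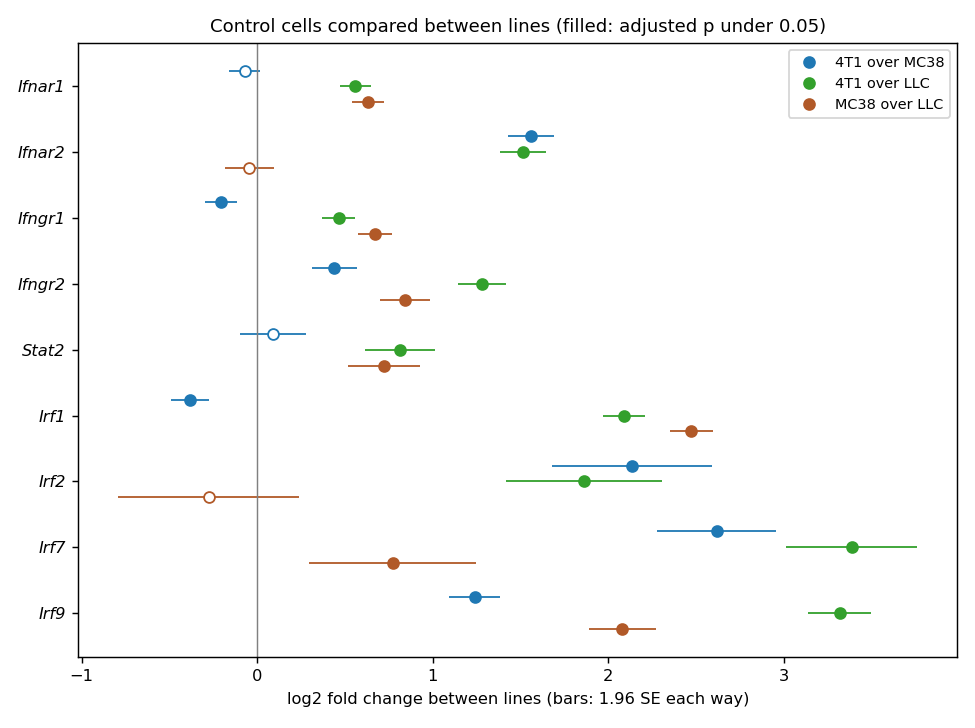
Log2 fold change between lines in control cells (4T1 over MC38, 4T1 over LLC, MC38 over LLC) for each gene; bars are 95% intervals (from the SE) and filled points passed an edgeR adjusted p of 0.05. All 9 points of 4T1 over LLC are above 0, up to 3.39 for Irf7, and Irf1 is the gene with the widest gap of MC38 over LLC, 2.47.

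To compare genes with each other, CPM was divided by the length of the gene's merged exons (GENCODE M21) in kilobases. This scale was preferred to TPM between lines because of the small noncoding RNAs described above. On TPM the sign of Irf1, Ifnar1 and Ifngr1 between 4T1 and MC38 controls turned, with 56.5 ± 0.723 TPM in 4T1 and 37.3 ± 3.02 TPM in MC38 for Irf1, 33.7 ± 0.350 TPM in 4T1 and 17.9 ± 1.49 TPM in MC38 for Ifnar1 and 33.4 ± 0.572 TPM in 4T1 and 19.4 ± 0.753 TPM in MC38 for Ifngr1. Irf1 led in control 4T1 (17.3 ± 0.221 CPM per kilobase) and MC38 (21.6 ± 0.476), and Ifngr1 (7.01 ± 0.196) and Ifnar1 (6.64 ± 0.352) led in LLC with overlapping ranges. In control 4T1 the order then ran Ifnar2 (14.2), Ifnar1 (10.4), Ifngr1 (10.2), Ifngr2 (7.73), Irf9 (6.05), Irf2 (4.02), Irf7 (2.62) and Stat2 (2.52 CPM per kilobase). The ranges of Ifnar1 and Ifngr1, and of Irf7 and Stat2, overlapped there. In control MC38 and LLC Irf7 was last, at 0.406 ± 0.118 and 0.236 ± 0.0401 CPM per kilobase.

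With sildenafil the order in 4T1 changed. Irf7 went to the second place at 21.1 ± 3.86 CPM per kilobase, against the eighth place at 2.62 ± 0.304 in controls, and Stat2 to the fifth at 14.8 ± 0.659, against the last at 2.52 ± 0.380. Irf2 was last in treated 4T1 at 5.32 ± 0.256 CPM per kilobase. With the length of the longest coding transcript instead, a choice made after seeing the data, Irf7 and Stat2 had the same places in both groups of 4T1, while Ifngr2 was last in treated 4T1. Other places changed with that length. In control 4T1 Ifnar1 (15.7 CPM per kilobase) stood before Ifnar2 (15.6), Irf2 (11.9) went from place 7 to 5 and Ifngr2 (7.85) from 5 to 7. In control LLC Ifnar1 (10.1) led before Ifngr1 (9.45). On either length Irf1 led in 4T1 and MC38 controls.

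**Figure D5:**
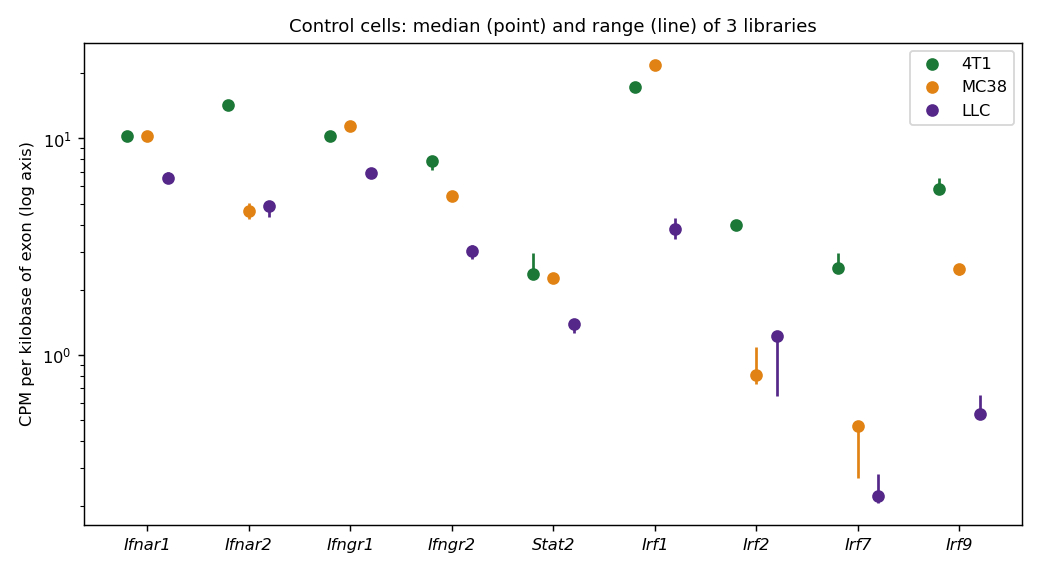
CPM per kilobase of exon (log axis) of each gene in control cells of 4T1, MC38 and LLC; points are medians and lines the range of 3 libraries. Irf1 stands highest in 4T1 and MC38, and Irf7 spans the lines from about 2.5 CPM per kilobase in 4T1 to under 0.3 in LLC.

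Other genes of the pathway were counted by list, and the counts are to be read against the shares of all tested genes, which were 33.5% higher and 33.3% lower in 4T1, 19.5% and 18.3% in MC38, and 15.1% and 12.2% in LLC. The 4 JAK kinases relay the signal from the receptor chains: in 4T1 Tyk2 (log2 fold change 0.88 ± 0.0637), Jak2 (0.59 ± 0.0387) and Jak3 (0.45 ± 0.0713) rose. Jak1 did not pass in 4T1 (0.07, edgeR adjusted p = 0.0557). In MC38 Tyk2 (0.50 ± 0.058), Jak3 (0.41 ± 0.0905) and Jak2 (0.18 ± 0.0463) rose and Jak1 fell (-0.13 ± 0.042), and in LLC none of the 4 passed. Of 6 other STAT genes 5 were tested: 5 rose in 4T1, 2 in MC38 and 3 in LLC, and none fell. Among the other IRF genes and the IRF2-binding corepressors, 5 of 7 tested rose and 1 fell in 4T1, 2 of 6 rose and 1 fell in MC38, and 1 of 5 rose in LLC. The corepressor gene Irf2bp2 rose in 4T1 (0.33 ± 0.0361) and MC38 (0.41 ± 0.0306), Irf2bp1 fell in both (-0.37 ± 0.0413 and -0.19 ± 0.0639), and Irf2bpl rose in LLC (0.42 ± 0.0523). Ifnlr1, the chain particular to the type III receptor, rose in 4T1 (0.72 ± 0.0592), and its shared partner Il10rb rose in 4T1 (0.23 ± 0.0511) and LLC (0.75 ± 0.104).

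Genes known as targets of these factors were counted too, beside 33.5% of all tested genes called higher in 4T1, 19.5% in MC38 and 15.1% in LLC. Of 18 genes known as type I interferon (ISGF3) targets, 18 rose in 4T1 with a median log2 fold change of 2.16, among them Ifit1 (2.90 ± 0.0539), Ifit2 (2.01 ± 0.0488), Ifih1 (1.65 ± 0.0437) and Ddx58 (1.43 ± 0.0385). In MC38 12 of 18 rose and 1 fell, with a median of 0.35 and Rsad2 (0.83 ± 0.0627) and Ifit1 (0.71 ± 0.0734) among those that rose, and in LLC 6 of 10 tested rose with a median of 0.47, among them Parp9 (0.87 ± 0.1) and Ifi35 (0.53 ± 0.0583). Of 15 interferon gamma (GAS, IRF1) targets, 13 of 13 tested rose in 4T1 with a median of 1.93, among them Gbp2 (2.80 ± 0.0556) and Irgm1 (2.12 ± 0.0513), both interferon-induced GTPases. In MC38 7 of 11 tested rose with a median of 0.24, among them Nlrc5 (0.60 ± 0.0669), a transactivator of MHC class I genes, and in LLC 4 of 8 tested rose with a median of 0.48, among them the immunoproteasome subunit gene Psmb8 (0.94 ± 0.149). Stat2 and Irf9 thus missed the test in LLC in the same libraries in which 6 of 10 tested ISGF3 targets rose.

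Of 13 feedback inhibitors, 8 rose and 2 fell in 4T1, 2 rose and 3 fell in MC38, and 5 of 11 tested rose in LLC. In MC38 5 of 13 were thus called, near the 37.8% of all tested genes, and in 4T1 10 of 13, beside 66.7%. Usp18, which blocks signalling at IFNAR2, rose in 4T1 (3.05 ± 0.247) and MC38 (0.46 ± 0.0869), whereas the phosphatase gene Ptpn11 fell in 4T1 (-0.34 ± 0.0269) and MC38 (-0.10 ± 0.0276) and rose in LLC (0.31 ± 0.0416). The suppressor of cytokine signalling Socs1 fell in MC38 (-0.36 ± 0.115), and Socs3 rose in LLC (0.40 ± 0.0567). The ligands themselves were close to absent. Over 21 interferon genes, none of which passed the expression filter, the 3 libraries of a group together held 15 counts with sildenafil and 11 in controls in 4T1, 23 and 14 in MC38, and 24 and 10 in LLC. Ifnb1, the gene of interferon beta, had 9 counts with sildenafil and 4 in controls in 4T1, and in MC38 and LLC Ifnz made up 23 and 23 of these counts with sildenafil and 13 and 8 in controls.

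For each member the 2 genes whose log2 CPM followed it most closely over the 18 libraries were sought among 10879 expressed genes. Pearson's r is a description here, since the libraries fall into 3 lines and share depth and treatment. Irf9 was followed by Ifi44 (r = 0.996) and Enpp4 (0.994), Irf7 by Trafd1 (0.993) and Apol9b (0.989), and Stat2 by Trp53inp2 (0.978) and Uba7 (0.978). Irf1 was followed by Rab5c (0.991) and Fosl2 (0.990), and Irf2 by Rnf10 (0.9945) and Prkce (0.992). For the receptor chains they were Tapbp (0.991) and Pbxip1 (0.988) for Ifnar1, Sdc3 (0.998) and Ifi203 (0.995) for Ifnar2, Nuak1 (0.961) and Gosr2 (0.9605) for Ifngr1, and Ext2 (0.989) and Tspan15 (0.989) for Ifngr2.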

How the data were processed

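RNA was isolated from cultured cells, and libraries were made with a stranded poly(A) mRNA kit and read from both ends on a NovaSeq, per the labels' protocols. The authors deposited expected counts per gene for the 18 libraries. The submitters' processing notes name RSEM 1.3.1, STAR 2.7.0f, cutadapt 1.18 and bcl2fastq 2.17, and the build mm10; which annotation was counted, and with what strand option, is not given in the sources used here. All 55450 identifiers and symbols matched GENCODE M21 (GRCm38), the source of gene positions and lengths. Promoter windows are RefSeq's on GRCm38.p6.

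Expected counts were rounded and tested in R 4.3.3 by the quasi-likelihood F test of edgeR 4.0.16 (robust, TMM scaling, genes kept by filterByExpr, Benjamini-Hochberg over all tested genes, threshold 0.05). Each line was tested on its 6 libraries, response differences on all 18 and control cells on 9. SE is the size of the log2 fold change divided by the square root of F. Total counts of 26348654 to 61600646 set the precision, and values cover counting error and the spread of 3 libraries only. Alternatives were DESeq2 1.42.0, limma-voom (limma 3.58.1), other scalings and filters, unrounded counts, protein-coding genes alone, Gm26917 as a covariate, the replicate number as a block, other sets of libraries in the fit and each library left out. The tests were tested on simulated counts. The members and all lists were chosen with earlier results of these data known. Every member is named whatever its values, other list genes by smallest adjusted p, up to 4 per list and line and then also in the other lines; the results of some list genes are not reported here. Plots were drawn with matplotlib 3.10.9.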

Additional observations from a re-analysis of the deposited data

Results flagged for a closer look

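The response to sildenafil of 17 pairs of gene and line comparison differed between lines by edgeR's test of the difference itself, with SE and background shares given in the report. Between 4T1 and MC38 the difference of log2 fold changes was 2.26 for Irf7 (adjusted p = 3.08e-05), 1.68 for Stat2 (8.31e-10), 1.08 for Irf9 (2.54e-06), 0.67 for Irf1 (4.87e-08), 0.54 for Ifngr2 (8.36e-05) and 0.28 for Ifnar1 (0.000352). Between 4T1 and LLC it was 2.23 for Stat2 (3.23e-11), 1.98 for Irf7 (0.000511), 1.33 for Irf9 (9.78e-06), 0.94 for Irf2 (0.0153), 0.39 for Ifngr2 (0.00326), 0.22 for Ifnar1 (0.00304), -0.20 for Irf1 (0.035) and -0.45 for Ifngr1 (1.8e-05). Between MC38 and LLC it was 0.55 for Stat2 (0.00583), -0.36 for Ifngr1 (0.00102) and -0.86 for Irf1 (1.5e-08). LLC was treated for 48 hours and the other lines for 24 hours, so line and duration cannot be told apart in the last 2 comparisons. The Irf2 difference between 4T1 and LLC lost its call without LLC control 1 (0.75, edgeR adjusted p = 0.0548).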

How the results depend on the processing

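Over 1536 pairs of a member's value and an alternative, 1449 had the same direction and the same side of the threshold, 58 lost a call, 12 gained one and 17 changed sign. The level of Gm26917 as a covariate moved most: members called higher were 2 of 8 in 4T1, 1 of 6 in MC38, 3 of 6 for 4T1 minus LLC and 2 of 5 for 4T1 over MC38 controls, and members called lower were 1 in each of the last 2. With it Irf2 turned to -0.021 in 4T1, 0.46 in MC38, 0.16 in LLC, -0.41 for 4T1 minus MC38, -0.18 for 4T1 minus LLC and 0.20 for MC38 over LLC controls. Irf7 in MC38 (-0.19), Irf9 in LLC (-0.037), Irf1 for 4T1 minus LLC (0.0045) and Ifnar1 for 4T1 over MC38 controls (0.30) turned too, and over all genes 964, 923 and 2208 were called in 4T1, MC38 and LLC, against 9285, 5047 and 3702. Members called higher in LLC were 3 with DESeq2 and 2 with a filter of 5 CPM. Under that filter Irf7 was not tested in MC38 or LLC, nor Irf9 in LLC. Members called lower were 1 for 4T1 minus LLC with library totals, that filter, protein-coding genes alone or 12 libraries, and 1 for 4T1 over MC38 controls with library totals or no filter, where Ifnar1 stood at 0.10 and 0.014.

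Leaving out 1 library gave 3 to 5 members called higher and 0 to 1 lower in LLC, 1 to 2 lower for 4T1 minus LLC and 0 to 1 lower for MC38 over LLC controls. Signs turned for Ifngr2 in MC38 (-0.15 to 0.0052, positive without sildenafil 2 or 3), Irf9 in LLC (-0.042 without sildenafil 2, to 0.22), Stat2 of 4T1 over MC38 controls (-0.037 without 4T1 control 1, to 0.17) and Ifnar2 of MC38 over LLC controls (-0.10 to 0.021, without MC38 control 2). Over all genes the LLC count ran from 1841 without sildenafil 3 to 5994 without control 3. The causes were not tested.

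Deviations of same-numbered treated and control libraries correlated from -0.0141 to 0.14, and those of different-numbered ones from -0.114 to 0.0643. These ranges overlap, so the values do not settle whether replicate numbers pair the samples. With the replicate block Irf2 fell in LLC (-0.53, edgeR adjusted p = 0.0317), the 1 member called lower there, and its response differed between 4T1 and MC38 (0.65, edgeR adjusted p = 0.00299); no other member's call changed. Depth limits Irf7 in MC38 and LLC most, at 23 to 84 counts per library.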
